A study of Schizosaccharomyces pombe with 30 samples.

Results

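Intergenic long non-coding RNA (lncRNA) genes, annotated transcription units without a long reading frame that no protein-coding gene overlaps on the opposite strand, held 872 of the 15789 Seb1 crosslink sites on the 3 nuclear chromosomes of *S. pombe* (5.52%). A site was a member when it lay on the sense strand inside a gene of biotype lncRNA of the ASM294v3 RefSeq annotation that overlaps no protein-coding gene on the opposite strand. Positions that also lie in a protein-coding, tRNA, rRNA, snRNA or snoRNA gene of the same strand were left out, and where lncRNA genes overlap each other the longest one was used. The members lay in 338 of 1690 such genes. They are set beside 1781 sites in antisense lncRNA genes, which overlap a coding gene on the other strand, and 8398 sites in protein-coding genes.

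The sites come from 1 PAR-CLIP library of cells with a TAP-tagged copy of Seb1 in place of the native one (genotype h-, seb1::seb1-TAP::KanMX). Growth was at 30 °C in a minimal medium that held 10 mg of uracil per litre, 4% glucose and 100 µM of the analogue 4-thiouracil. A further 900 µM of it was given for 4 h, and the cells were then irradiated at 365 nm with 12 J per cm2. The occupancy of a site was scaled by 1 RNA-Seq library of untagged h- cells labelled in the same way. Each is a single library, so no value has a replicate, no test between classes was made, and every interval covers counting error only.

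Seb1 is a protein with a domain that binds the phosphorylated C-terminal repeats of RNA polymerase II and an RRM that binds RNA, and it takes part in ending transcription. Its relative in *S. cerevisiae*, Nrd1, ends transcription of many short non-coding transcripts, and in *S. pombe* several lncRNAs are known for silencing a neighbouring gene or for holding RNA-binding proteins. In PAR-CLIP a crosslinked 4-thiouridine is read as C, and a T-to-C transition in the reads therefore marks a uridine touched by the protein. The RNA was partially digested with RNase T1, which cuts after G.

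The depth behind a single site was low. Members rested on a median of 3 transitions in 15 reads, with a highest value of 272 transitions and 5798 reads, and 403 of them (46.2%) rested on 2 transitions. Among antisense lncRNA sites 62.9% and among protein-coding sites 65.1% did so. All 872 windows of 51 nt around the members occur once in the nuclear genome. The label lncRNA also covers 3 structural RNA genes in the annotation, srp7 (the RNA of the signal recognition particle), mrp1 (the RNA of RNase MRP) and ter1 (telomerase RNA), which hold 2, 7 and 2 members. Leaving them out left 861 sites and moved none of the main values beyond its interval.

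The crosslinked RNA itself is shown here for 5 genes among those with the most sites, because the bases around the sites carry the motif results. Each stretch is the sense RNA read from ASM294v3, 5′ to 3′, in lower case with every crosslinked uridine in capitals. SPNCRNA.4629 is printed whole (chrII:259284-259497, minus strand, 25 sites), and the others as the stretch with the most sites: nc-pho1 at chrII:4446618-4446700 (plus strand, 7 sites), prt2 at chrII:4442545-4442618 (plus strand, 10 sites), SPNCRNA.87 at chrI:3178050-3178159 (plus strand, 6 sites) and nc-tgp1 at chrII:352514-352601 (minus strand, 5 sites).
SPNCRNA.4629: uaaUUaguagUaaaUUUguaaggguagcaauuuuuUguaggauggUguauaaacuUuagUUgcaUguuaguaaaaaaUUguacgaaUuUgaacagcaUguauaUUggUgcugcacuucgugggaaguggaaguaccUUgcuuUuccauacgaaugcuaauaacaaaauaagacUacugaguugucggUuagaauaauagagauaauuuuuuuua
nc-pho1: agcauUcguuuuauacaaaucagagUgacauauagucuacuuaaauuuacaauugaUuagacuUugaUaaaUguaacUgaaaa
prt2: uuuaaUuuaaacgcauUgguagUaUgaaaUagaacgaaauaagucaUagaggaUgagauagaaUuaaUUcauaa
SPNCRNA.87: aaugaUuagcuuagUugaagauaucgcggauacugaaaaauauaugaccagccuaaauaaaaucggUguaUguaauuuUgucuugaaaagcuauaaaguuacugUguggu
nc-tgp1: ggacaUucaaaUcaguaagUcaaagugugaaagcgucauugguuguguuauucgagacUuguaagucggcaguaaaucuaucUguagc
SPNCRNA.4629 carries 5 copies of UGUA in 214 nt, the stretches of SPNCRNA.87 and nc-tgp1 carry 2 each, that of nc-pho1 carries 1, and the 10 sites of the prt2 stretch stand in RNA without a UGUA.

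A further set shows how a crosslink can sit against the motif. In these 51-nt windows UGUA is in capitals and the crosslinked uridine is the middle letter. In the first 3 it is the first U of a UGUA, at chrII:259400 in SPNCRNA.4629 (66 transitions), chrI:1234818 in mrp1 (55 transitions) and chrII:352519 in nc-tgp1 (45 transitions). In the other 3 it lies 5 nt after the first U, at chrI:4268669 in srp7 (272 transitions), chrII:259494 in SPNCRNA.4629 (23 transitions) and chrII:2021578 in SPNCRNA.1482 (13 transitions).
SPNCRNA.4629, first U: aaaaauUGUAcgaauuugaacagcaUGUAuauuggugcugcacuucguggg
mrp1, first U: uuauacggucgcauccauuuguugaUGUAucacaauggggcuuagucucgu
nc-tgp1, first U: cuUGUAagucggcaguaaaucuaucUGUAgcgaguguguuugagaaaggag
srp7, 5 nt after: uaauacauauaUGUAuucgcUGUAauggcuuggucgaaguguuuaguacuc
SPNCRNA.4629, 5 nt after: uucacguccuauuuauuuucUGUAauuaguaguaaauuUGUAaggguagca
SPNCRNA.1482, 5 nt after: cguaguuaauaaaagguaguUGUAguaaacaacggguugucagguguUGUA
They are the sites with the most transitions of each kind when each gene gives only its top site, with SPNCRNA.1482 level with SPNCRNA.2440 at 13. Another site of SPNCRNA.4629, at chrII:259419 with 59 transitions, is also the first U of a UGUA and was left out for this reason.

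A site was found in 20% of the intergenic lncRNA genes (338 of 1690, 95% Wilson interval 18.2 to 22%), in 15.7% of antisense lncRNA genes (855 of 5443, 14.8 to 16.7%) and in 61.5% of protein-coding genes (3147 of 5113, 60.2 to 62.9%). Over the 3 classes together it was 35.4%. Per uridine the order was the same and the distances differed. Intergenic lncRNA genes held 2.40 sites per 1000 uridines of their own sequence, antisense lncRNA genes 1.12 and protein-coding genes 2.49, so that the first and the last lay close together. Asking for 13 reads at a site lowered the share of genes with a site to 9.94% for intergenic lncRNA, 6.83% for antisense lncRNA and 33.0% for protein-coding genes, in the same order.

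The members were spread unevenly over their genes. Of the 338 genes, 172 had 1 site, 166 had at least 2 and 46 had at least 5. The 15 genes with the most sites held 199 sites (22.8%) and 2142 of all 5288 transitions (40.5%). Genes with a site had a median length of 607.5 nt (quartiles 362 and 1059 nt), against 455.5 nt (298 and 753 nt) for the 1352 genes without one. UGUA was present 5.91 times per kb in genes with a site and 5.40 times per kb in genes without one. On chromosome I 22.7% of the genes had a site, on chromosome II 18.8% and on chromosome III 17.2%, and sites per 1000 uridines were 2.73, 2.87 and 1.22 in that order of chromosomes.

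UGUA, the motif named for Seb1, lay within 25 nt of 404 of the 872 members (46.3%, 43.0 to 49.7%), against 25.8% of all uridines of the same 338 genes, a ratio of 1.79. Over all nuclear sites the share was 43.4%, inside the members' interval. The motif was searched on the crosslinked strand and counted where all its letters lay in the window. Antisense lncRNA sites had UGUA in 42.6% (40.3 to 44.9%) against 22.5% of their uridines, a ratio of 1.89, and protein-coding sites in 36.4% (35.4 to 37.4%) against 18.3%, a ratio of 1.99. The members thus had the highest share of sites with the motif and, in uridines of their own genes, also the highest share to start from. Among sites with at least 3 transitions the shares were 47.8% for intergenic lncRNA, 50.1% for antisense lncRNA and 46.1% for protein-coding genes, in which the members no longer came first.

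**Figure D1:**
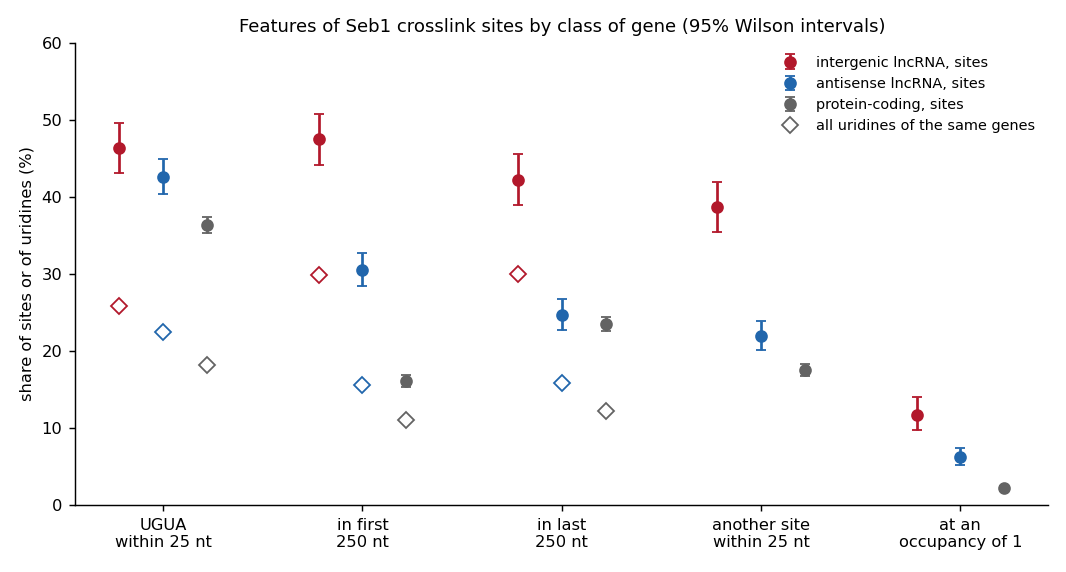
Shares of sites (filled circles, in %, with 95% Wilson intervals) with UGUA within 25 nt, in the first or last 250 nt of their gene, with another site within 25 nt, and at an occupancy of 1, for intergenic lncRNA (872 sites), antisense lncRNA (1781) and protein-coding genes (8398). Open diamonds give the same share over all uridines of the genes with sites, which is 25.8% for UGUA in intergenic lncRNA genes against 46.3% of their sites.

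Longer forms of the motif were also more frequent near the sites than near uridines. UGUAG lay near 12.3% of the members against 4.92% of uridines (ratio 2.49), and UGUAA near 19.5% against 9.71% (ratio 2.01), and the difference between the ratios was not tested. Of all 4-letter words, GUAG had the highest ratio of sites to uridines at 2.08 (27.3% against 13.1%), followed by AGUA at 1.86 (40.8% against 21.9%), UGUA at 1.79, UAGU at 1.68 (34.7% against 20.6%) and GUAA at 1.68 (40.1% against 23.9%). These words overlap each other in letters and in sites, and UGUA, GUAG and GUAA together spell UGUAG and UGUAA.

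Other motifs behaved differently. UCUU, which the Nrd1 partner Nab3 binds in *S. cerevisiae*, lay near 20.4% of members and near 30.5% of uridines (ratio 0.669), and the ratio was below 1 in antisense lncRNA (0.658) and protein-coding genes (0.740) as well. UNAAAC, the motif of the *S. pombe* protein Mmi1 that removes meiotic transcripts, lay near 9.06% of members and 9.27% of uridines (ratio 0.977). AAUAAA, the canonical signal for cleavage and polyadenylation, lay near 6.19% of members (4.78 to 7.99%) and 6.33% of uridines, a ratio of 0.978, while its ratio was 1.30 at antisense lncRNA sites and 1.52 at protein-coding sites.

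Within the motif, crosslinks gathered at particular letters. The first U of a UGUA was the crosslinked base at 114 members (13.1%), against 1.81% of the uridines of the same genes. The U between G and A was hit at 4 members (0.459%), although as many uridines lie there (1.82%). A second position was 5 nt after the first U, the crosslinked base at 43 members (4.93%) against 0.574% of uridines, where the 6 letters that end at the site were UGUAGU at 20 members, UGUAAU at 11, UGUAUU at 11 and UGUACU at 1.

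**Figure D2:**
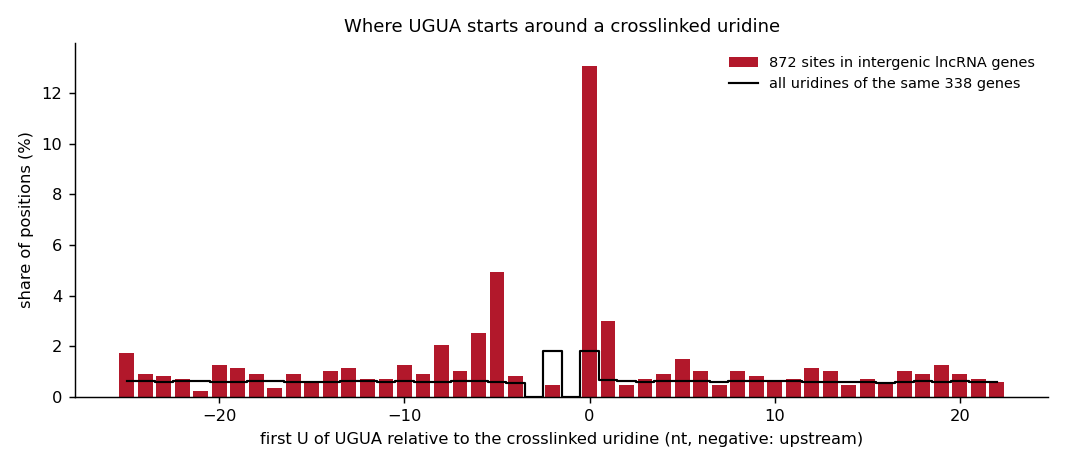
Share of positions (in %) at which a UGUA starts at each distance from the uridine, for the 872 sites in intergenic lncRNA genes (bars) and all uridines of the same 338 genes (line). Bars reach 13.1% where the site is the first U itself and 4.93% where UGUA starts 5 nt upstream, against 1.81% and 0.574% of uridines.

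The bases next to the crosslink followed the same pattern. G stood directly after 33.6% of members and 18.7% of uridines, and C after 5.85% and 16.45%. A stood directly before 44.0% of members and 29.3% of uridines, and at the position before that in 47.5% against 31.3%. Members with a UGUA nearby had a median of 16 reads and an occupancy of 0.139, and the 468 members without one had 15 reads and 0.118, so that the depth at both was similar. RNase T1 cuts after G, and its part in the base composition was not tested.

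In genes with at least 1 site, a larger share of sites than of uridines lay near the start. Of the members, 47.5% (414, 44.2 to 50.8%) lay in the first 250 nt, which hold 29.9% of the uridines of the same genes, a ratio of 1.59. For antisense lncRNA the shares were 30.5% of sites and 15.6% of uridines (1.96), and for protein-coding genes 16.2% and 11.1% (1.46). Over all 1690 genes the density was 3.46 sites per 1000 uridines in the first 50 nt and 2.94 between 250 and 299 nt, and it was 1.74 and 1.26 in the bins of 50 nt between 700 and 799 nt. Short genes do not reach the later bins and lie mostly inside the window of 250 nt. Gene length and position were therefore not separated.

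At the other end the classes parted. The last 250 nt held 42.2% of the members (368, 39.0 to 45.5%) and 30.0% of the uridines, a ratio of 1.41, against ratios of 1.56 in antisense lncRNA and 1.93 in protein-coding genes. In protein-coding genes the density climbed towards the end and was 6.29 sites per 1000 uridines in the last 50 nt, whereas intergenic lncRNA genes had 2.71 there and antisense lncRNA genes 1.03. In genes shorter than 500 nt the first and the last 250 nt share bases. In genes of at least 500 nt, 29.9% of the members lay in the first and 21.6% in the last 250 nt, against 25.9% and 20.4% in antisense lncRNA and 15.8% and 22.9% in protein-coding genes. The share of uridines in these windows was not computed for genes of at least 500 nt.

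**Figure D3:**
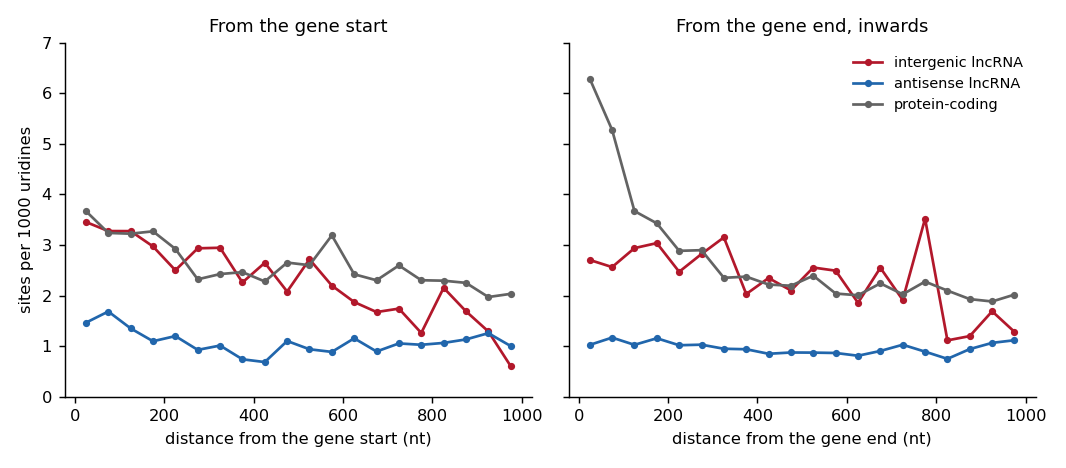
Crosslink sites per 1000 uridines in bins of 50 nt, by distance from the gene start (left) and from the gene end inwards (right), for the 3 classes of genes. Intergenic lncRNA genes start at 3.46 and end at 2.71, while protein-coding genes end at 6.29, and bins far from either end rest on few sites.

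Members stood in groups. Another site of the same strand lay within 25 nt of 38.6% of them (337, 35.5 to 41.9%), against 22% of antisense lncRNA sites (20.1 to 23.9%) and 17.6% of protein-coding sites (16.8 to 18.4%), and 26% of all nuclear sites. Sites this close are covered by the same reads in part and are not independent of each other. Taking the site with the most transitions in each gene gave 17.5%, 11.0% and 9.72% in the same order of classes.

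The RNA-Seq coverage recovered from the occupancy was low at the members. Occupancy divides the transitions by a whole number, taken here as the RNA-Seq reads of WT cells at that base, and is held at a maximum of 1. Where it was below 1, the median coverage was 30 reads at members (26 to 34, 770 sites), 36 at antisense lncRNA sites (34 to 38) and 77 at protein-coding sites (74 to 79). The median occupancy was 0.127 at members (quartiles 0.0526 and 0.333), 0.0800 at antisense lncRNA sites and 0.0323 at protein-coding sites. Since it divides by the coverage, a scarce RNA reaches a given occupancy with fewer transitions.

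At the maximum of 1, where sites cannot be ranked, stood 102 members (11.7%, 9.73 to 14.0%), against 6.23% of antisense lncRNA sites (5.20 to 7.45%) and 2.20% of protein-coding sites (1.91 to 2.54%), and 5.74% of all nuclear sites. Members at the maximum had a median of 3 transitions and 22.5 reads, and those below it 3 transitions and 15 reads. They lay in 60 genes, and 8 genes with at least 3 such sites held 43 of them. The T-to-C share of reads, which does not use the RNA-Seq library, was lowest at the members, with a median of 15.4% (14.3 to 16.7%). It was 20% at antisense lncRNA sites and 18.2% at protein-coding sites. Sites with few reads have high shares by construction, and at 13 reads or more the medians were 9.40%, 13% and 13.3%.

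Sites at the maximum gathered near the start of the genes. In the first 50 nt 23 of 93 members were at the maximum (24.7%, 17.1 to 34.4%) and from 51 to 100 nt 19 of 88 (21.6%, 14.3 to 31.3%), whereas from there to 250 nt it was 21 of 233 (9.01%, 5.97 to 13.4%) and beyond 250 nt 39 of 458 (8.52%, 6.29 to 11.4%). The share over the first 100 nt was 23.2% (42 of 181) and without the gene prt2, which holds 9 of those sites, 19.3% (33 of 171, 14.1 to 25.9%). Median reads at the members in these 4 windows were 24, 23.5, 27 and 14, and UGUA lay near 45.2%, 38.6%, 47.2% and 47.6% of them. The annotated start of a lncRNA and the RNA-Seq coverage close to it were not checked in any other data.

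Members differed with the place of their gene beside coding genes. Of the 1690 genes, 186 start inside or within 250 nt after a coding gene of the same strand, and 63 of these had a site (33.9%, 27.5 to 40.9%). A further 607 start within 500 nt of the start of a coding gene on the other strand, an arrangement called divergent, and 154 of these had one (25.4%, 22.1 to 29.0%). Of the 897 genes in neither arrangement, 121 had a site (13.5%, 11.4 to 15.9%). The densities followed, with 6.98, 3.25 and 1.25 sites per 1000 uridines in the same order.

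The 203 sites in genes after a coding gene (23.3% of the members) had UGUA nearby in 54.7% (47.8 to 61.4%), the 408 sites in divergent genes in 46.6% (41.8 to 51.4%) and the 261 sites in the other genes in 39.5% (33.7 to 45.5%). Of the 203 sites, SPNCRNA.4629 alone held 25, of which 20 had UGUA nearby, and nc-pho1 held 23, of which 6 had it. Sites of the same gene are not independent, and the shares of this group without these genes were not computed. The first group had the highest RNA-Seq coverage, with a median of 67.5 reads (51 to 84) against 23.5 (20 to 27) and 26 (22 to 35), and the lowest share of sites at the maximum, 5.42% (3.05 to 9.44%) against 15.2% (12.0 to 19.0%) and 11.1% (7.85 to 15.5%). RNA of such a lncRNA cannot be told apart from RNA that runs on past the end of the coding gene, and 88 members (10.1%, 8.26 to 12.3%) lay within 250 nt after the annotated 3′ end of a coding gene. A coding gene downstream on the same strand made no such contrast, since 38.5% of the genes with a site and 38.1% of those without one end within 500 nt before one.

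**Figure D4:**
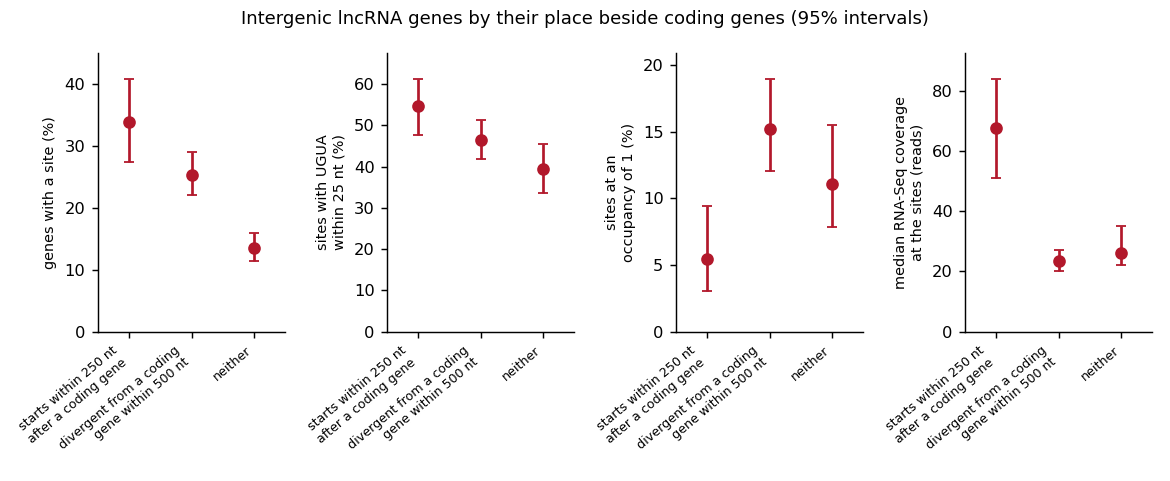
Intergenic lncRNA genes that start within 250 nt after a coding gene, are divergent from one within 500 nt, or neither (left to right in each panel), with the share of genes with a site, of sites with UGUA within 25 nt and of sites at an occupancy of 1 (in %, 95% Wilson intervals), and the median RNA-Seq coverage in reads (95% order-statistic intervals). The share of genes with a site is 33.9%, 25.4% and 13.5% in that order. SPNCRNA.4629 alone holds 25 of the 203 sites of the first group.

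Among single genes, SPNCRNA.4629 had the most sites and the most transitions. It is 214 nt long, starts 8 nt after rpl4301, a gene for a protein of the large ribosomal subunit, and held 25 sites with 709 transitions, which is 325 sites per 1000 uridines. Reads per site ranged from 150 to 1019 with a median of 613, transitions from 6 to 66 with a median of 23, and occupancies from 0.0458 to 1. UGUA lay within 25 nt of 20 of its sites, the exceptions being the 5 sites nearest the end, and the site at the maximum of 1 was the first U of UGUA shown above. With its place right behind a ribosomal protein gene, its RNA cannot be told apart from RNA extending from rpl4301. Without this gene the members' UGUA share was 45.3%.

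Among the other members with many sites were the lncRNAs upstream of phosphate genes. In *S. pombe* transcription of nc-pho1 silences pho1, the secreted acid phosphatase, that of prt2 acts on pho84, a phosphate transporter, and that of nc-tgp1 on tgp1, a transporter of glycerophosphodiesters. nc-pho1 (chrII:4446359-4448918, plus strand) held 23 sites with 150 transitions, all between nt 31 and 559 of its 2560 nt, and prt2 (chrII:4442542-4445970, plus strand) 21 sites with 231 transitions between nt 9 and 812 of 3429 nt. Both overlap the gene behind them, nc-pho1 by 1413 nt of pho1 and prt2 by 1870 nt of pho84, and sites in those overlaps belong to the coding gene by the rule, which left out 2 sites in pho1. UGUA lay near 6 of the 23 sites and 4 of the 21 sites, below the share over all members.

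In prt2 the occupancy parted along the gene while the PAR-CLIP reads did not. The 10 sites up to nt 72 had between 91 and 275 reads each, 9 of them were at the maximum of 1 and the first one was at 0.750. The 11 sites from nt 165 on had between 90 and 204 reads, coverage between 127 and 361 reads and occupancies between 0.0194 and 0.0618. nc-pho1 showed the same kind of step. Its first 3 sites, at nt 31, 42 and 63, had 130, 187 and 211 reads, coverages of 9, 12 and 9 and occupancies of 0.667, 0.750 and 0.889. At nt 154, 165 and 180 there were 150, 148 and 148 reads, coverages of 518, 509 and 469 and occupancies of 0.0135, 0.0138 and 0.0128. nc-pho1 starts 158 nt after pho84, and its sites count among those behind a coding gene.

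nc-tgp1 (chrII:352335-354234, minus strand) held 13 sites with 153 transitions in another arrangement. One site lay near the start, at nt 60, with an occupancy of 1, whereas 10 lay between nt 1379 and 1821 of its 1900 nt, before tgp1 begins. The site with the most transitions, at nt 1716, had 45 transitions, 477 reads and an occupancy of 0.425, at the first U of the UGUA printed above. On the other strand of the same locus ncRNA.1343 (chrII:354031-355573, plus strand) held 3 sites with 7 transitions.

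**Figure D5:**
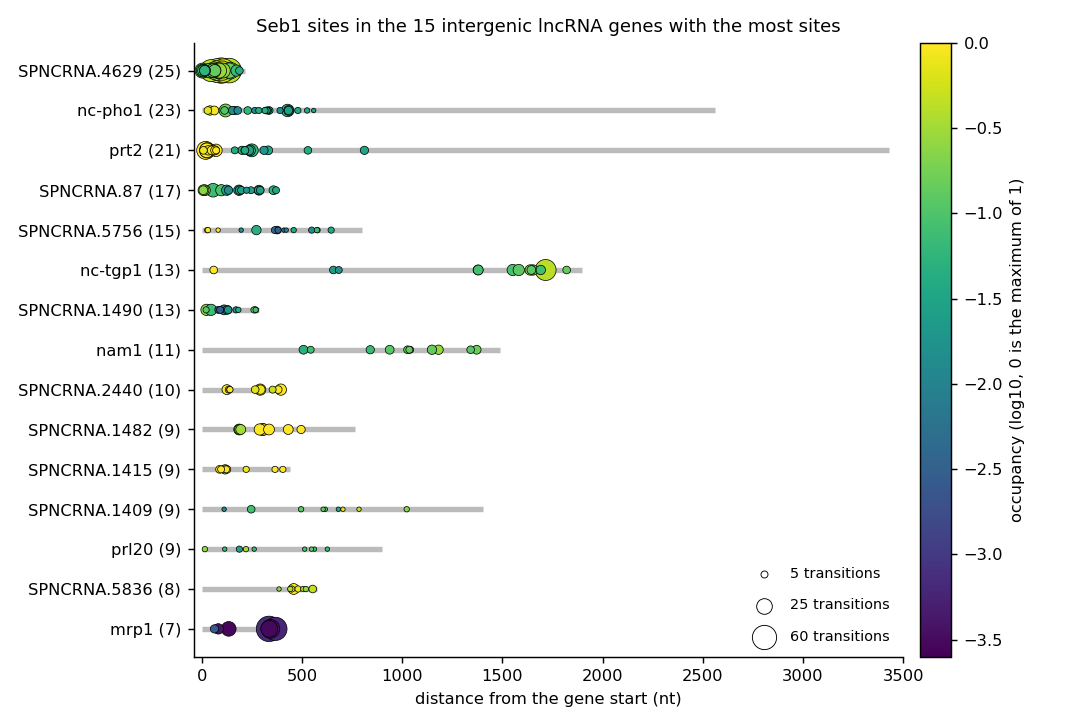
Crosslink sites (circles) by distance from the gene start in nt in the 15 intergenic lncRNA genes with the most sites, with the number of sites in brackets. Grey bars show the gene, the area of a circle is proportional to its transitions and the colour gives log10 of the occupancy, so that the first sites of prt2 stand at the maximum while those of mrp1 lie lowest.

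RNAs known from meiosis and Mmi1 had fewer sites. nam1 (chrII:1742555-1744043, minus strand), which ends 210 nt before byr2, a kinase of the mating pathway, held 11 sites with 76 transitions between nt 508 and 1372, none in its first 250 nt. Their reads ranged from 44 to 242 and their occupancies from 0.0494 to 0.265, and 7 of the 11 had UGUA nearby. nam1 starts inside mlo3, a coding gene of the same strand, and its RNA cannot be told apart from RNA that runs on from mlo3. mamRNA (chrII:1307681-1308359, plus strand), an RNA that binds Mmi1, held 5 sites with 71 transitions, nam3 (chrII:4464625-4466286, minus strand) 5 with 14, and sme2 (chrII:339346-340907, minus strand), the gene of the meiRNA that sequesters Mmi1 in meiosis, 4 with 14. Another sme2 site lies inside mrpl8 and was left out. sme2 starts inside mrpl8, a coding gene of the same strand, and the limit given for nam1 holds for it too. The median RNA-Seq coverage at the sites was 53 reads in nam1, 457 in mamRNA, 70 in nam3 and 96 in sme2. These medians rest on the few crosslinked bases alone, and the expression of the whole genes was not measured.

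Among the structural RNAs the values differed widely. mrp1 (chrI:1234451-1234849, plus strand) held 7 sites with 226 transitions, at a median coverage of 92813 reads and occupancies between 0.000291 and 0.00260. srp7 (chrI:4268662-4268916, plus strand) held 2 sites. The one at nt 8 had 272 transitions, 5798 reads and an occupancy of 1, and the one at nt 145 had 146 transitions, 4665 reads, a coverage of 97659 reads and an occupancy of 0.00149. The PAR-CLIP reads at these sites were of similar number while the occupancies lay far apart. ter1 (chrI:3084610-3086022, minus strand) held 2 sites with 5 transitions and 39 reads, at occupancies of 0.00252 and 0.00671.

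Most sites of SPNCRNA.2440, SPNCRNA.1415 and SPNCRNA.1482 were at the maximum. SPNCRNA.2440 (chrI:998117-998538, minus strand), which starts 93 nt from eng1, a glucanase gene of cell separation, on the other strand, held 10 sites with 75 transitions and 7 were at the maximum. SPNCRNA.1415 (chrII:1150424-1150863, minus strand) held 9 sites, 8 of them at the maximum, and SPNCRNA.1482 (chrII:2021269-2022034, plus strand) held 9 with 6 at the maximum. Median reads per site were 102.5, 106 and 346 in these 3 genes, above the 15 reads of all members. The RNA-Seq coverage that divides the occupancy was low. At a site at the maximum it can be no more than the number of transitions, which was 4 to 13 in SPNCRNA.2440, 4 to 9 in SPNCRNA.1415 and 7 to 15 in SPNCRNA.1482, and at the sites below the maximum its median was 10, 5 and 46 reads. UGUA lay near 6 of 10, 6 of 9 and 7 of 9 sites, against 46.3% of all members. Sites of the same gene can share a copy of UGUA. Over all members, 12.4% of those with UGUA nearby and 11.1% of those without it were at the maximum.

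SPNCRNA.87 (chrI:3177931-3178309, plus strand) had its 17 sites along the whole gene, from nt 8 to 371 of 379 nt, with 78 to 558 reads each and occupancies between 0.0140 and 0.462. SPNCRNA.5756 (chrII:2640922-2641719, minus strand) starts 201 nt from prp1, a splicing factor gene on the other strand, and held 15 sites with 55 transitions, 9 of them with UGUA nearby. SPNCRNA.1490 (chrII:2145545-2145829, minus strand) held 13 sites with 82 transitions, and SPNCRNA.1409 (chrII:1079941-1081342, minus strand), which starts 32 nt from the chaperone gene mas5 on the other strand, 9 with 24. SPNCRNA.5836 (chrII:2827872-2828447, minus strand) had all its 8 sites in the last 250 nt. The stretches of SPNCRNA.5756 and SPNCRNA.1490 with 6 sites each, at chrII:2641256-2641360 and chrII:2145642-2145743, differ in that the first holds 3 copies of UGUA and the second none, with the crosslinked uridines again in capitals.
SPNCRNA.5756: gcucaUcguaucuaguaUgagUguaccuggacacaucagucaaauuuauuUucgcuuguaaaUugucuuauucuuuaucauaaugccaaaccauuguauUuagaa
SPNCRNA.1490: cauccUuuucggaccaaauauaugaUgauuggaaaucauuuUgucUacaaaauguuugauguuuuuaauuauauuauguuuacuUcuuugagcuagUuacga
Median occupancies were 0.0345 in SPNCRNA.5756, with 2 of its 15 sites at the maximum of 1, and 0.0400 in SPNCRNA.1490, with none of its 13 there.

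The genes of the prl series, found as polyadenylated RNAs without a long reading frame, spanned the range. prl20 held 9 sites with 22 transitions, prl53 held 6 with 53 at a median coverage of 2649 reads, prl58 and prl59 held 2 with 4 transitions each, and prl36, prl68 and prl102 held 1 with 2 transitions each. prl53 starts inside SPAC27E2.11C, a coding gene of the same strand, and its RNA cannot be told apart from RNA that runs on from that gene. In all, 18 of the 56 intergenic lncRNA genes with a symbol of their own had a site, and together they held 118 of the 872 members.

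A further pair of sites stands out by its values. SPNCRNA.7171 (chrIII:1038444-1039111, minus strand) had 1 site, at chrIII:1038934, where 260 of 268 reads carried the transition (97.0%, 94.2 to 98.5%) at an occupancy of 1. SPNCRNA.680 (chrI:765526-767503, plus strand) had 1 site, at chrI:766332, where 141 of 2065 reads carried it, also at an occupancy of 1. The first is far above the members' median T-to-C share of 15.4%, and the second is below it, at 6.83%. Sites with over 80% T-to-C numbered 3 among the members and 106 among all nuclear sites.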

How the data were processed

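The deposited list of crosslink sites from 1 Seb1 PAR-CLIP library was analysed. Per site, the authors deposited 2 raw counts, of reads with the T-to-C transition and of all reads over the base, a p-value of at most 0.00499, and an occupancy. The deposited occupancy is a ratio. Transitions over occupancy gave a whole number, to a relative tolerance of 1e-06, at all 15824 sites, a check that large numbers pass by construction, and this number was taken as the RNA-Seq coverage of WT cells. Alignment, site calling and thresholds were not repeated. The submitters' processing notes name Bowtie 1.1.1 and SAMtools among other tools, with no role, and the build ASM294v2. For the RNA-Seq library the labels give 12 J per cm2 of UV and the study's methods 1 J per cm2. The list sums to 914426 reads and 114500 transitions over sites, with medians of 13 reads and 2 transitions.

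Sites were placed on ASM294v3 and its RefSeq annotation. All 15789 nuclear sites fall on a T of their strand, and the other 35 sites were left out. Uridines were counted in full. Shares of uridines near a motif or a gene end used the genes of the class with sites. Sites per 1000 uridines used all genes of the class or group, with or without sites, or the single gene named. Shares have Wilson intervals and medians order-statistic intervals, both of 95%, which treat sites as independent. The members and lists were chosen with earlier results of these data known. The text names the 15 genes with the most sites, the 5 with the most transitions, every gene with a symbol, lncRNAs upstream of pho1, pho84 or tgp1, the 10 sites with the most transitions where a result turns on them, and the 5 words of 4 letters with the highest ratios. Genes and sites named beyond this were chosen after their values were seen, as were the windows of 100 nt. Alternatives covered reads, transitions and p-value of a site, the overlap rule, the windows, gene length, weights, 1 site per gene and leaving out the top gene. The assignment of sites and the motif counts were tested on simulated data. The RNA-Seq of mutants and the ChIP-Seq were not analysed here. Python 3.11.15 was used with scipy 1.17.1, numpy 2.4.6 and pandas 2.3.3, and figures were drawn in matplotlib 3.10.9.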

Additional observations from a re-analysis of the deposited data

How the results depend on the processing

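Of 105 recomputed values for these sites, 69 stayed inside the 95% interval of the reported value (for counts, within 1.5 times it) and 36 did not. The cause was not tested. With sites of at least 13 reads, 530 sites and 9.94% of the genes remained, 52.6% lay in the first 250 nt, the median coverage was 50 reads, the T-to-C share 9.40%, 49.4% had another site within 25 nt and 29.4% lay in genes behind a coding gene. With at least 3 transitions these were 469 sites, 9.23%, 53.9%, 57.5 reads, 8.24%, 49.3% and 30.9%, and 46.7% lay in the last 250 nt. With a deposited p-value of at most 0.001 there were 395 sites in 13% of genes, with a T-to-C share of 18.2%, 27.6% with a neighbour and 26.3% behind a coding gene. With 1 site per gene the coverage was 21 reads, the T-to-C share 20%, 17.5% had a neighbour and 18.6% lay behind a coding gene. Asking for 2 sites left 9.82% of the genes. UGUA within 10 nt was found at 32.6% of sites, neighbours within 10 nt at 23.1%, and 26.3% lay in genes starting within 500 nt after a coding gene, against 20.2% when overlap was judged by coding sequence. Set against uridines away from any site by 26 nt or more, the UGUA ratio was 1.99. Weighting by occupancy put 56.3% in the first 250 nt. In genes of at least 500 nt, 29.9% lay in the first and 21.6% in the last 250 nt. Leaving out genes behind a coding gene gave a coverage of 25 reads and 35.3% with a neighbour, and counting sites at the maximum gave 25 reads. The settings chosen after seeing the data moved none of these values.

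Depth limits single sites, since 46.2% of them rest on 2 transitions, and PCR duplicates cannot be recognised from the counts. The counts of sites in the named genes stayed within 1.5 times in 49 of 84 recomputations. No paired analysis was possible because the sites come from 1 library, and the samples that share replicate numbers were not analysed here.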

Other observations

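The letters CCGACGATC recur at a small number of the members, some of them with a high T-to-C share, a pattern chosen after the sites were seen. A site was counted when it lies in a run of at least 7 of these letters once its T is read as C. This held for 6 of the 872 members (0.688%) and 301 of all 15789 nuclear sites (1.91%), against 0.108% of all nuclear uridines. The median T-to-C share was 36.7% at these 6 members and 15.4% at the rest, and 50% and 17.4% over all nuclear sites. Among the 6, the sites of SPNCRNA.1559, SPNCRNA.7011 and SPNCRNA.521 rest on 2 transitions in 5, 10 and 6 reads. Their shares are 40%, 20% and 33.3%, and sites with few reads have high shares by construction. Of the sites with over 80% T-to-C, the letters are present at 2 of 3 members and at 77 of 106 nuclear sites. The same letters end the 5′ adapter of a widely used small RNA library kit. The adapter of this library is not given in the sources used here, and its part in these sites was not tested. The windows below, in sense RNA with the run in capitals and the crosslinked uridine in the middle, are the 3 with the most transitions: SPNCRNA.7171 at chrIII:1038934 (260 of 268 reads), SPNCRNA.217 at chrI:3158716 (19 of 19 reads) and SPNCRNA.1443 at chrII:1555029 (13 of 74 reads).
SPNCRNA.7171: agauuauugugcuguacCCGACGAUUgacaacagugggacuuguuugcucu
SPNCRNA.217: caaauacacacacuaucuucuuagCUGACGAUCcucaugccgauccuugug
SPNCRNA.1443: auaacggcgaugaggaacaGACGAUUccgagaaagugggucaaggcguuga
At the site of SPNCRNA.680 (chrI:766332, 141 of 2065 reads) the genome itself holds all 9 letters directly before the crosslinked uridine, so it is not among the 6. Its window is printed in lower case, since it holds no UGUA.
SPNCRNA.680: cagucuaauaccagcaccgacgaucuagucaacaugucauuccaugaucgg
Without the 6 sites the share of members at an occupancy of 1 was 11.3% and that with UGUA within 25 nt was 46.4%.

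Sites outside the members surround the same genes. Inside the 1690 intergenic lncRNA genes, 697 sites lay on the opposite strand, where by the rule no protein-coding gene overlaps. A further 193 sites in unannotated sequence lay on the sense strand within 250 nt after the annotated 3′ end of one of these genes. When overlap was judged by coding sequences alone and not by whole genes, 1120 sites counted as members, and when a site inside any intergenic lncRNA gene counted, also where a longer antisense lncRNA gene covers it, 886 did.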
